A study of Mus musculus with 12 samples.

Results

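Neurotrophins are secreted growth factors of the nervous system, and the transcripts of 6 genes of this system, the ligands Bdnf and Ntf3 and the receptors Ntrk2, Ntrk3, Ngfr and Sort1, were followed in the hippocampus of APP/PS1 mice and wild-type (WT) littermates. The genes were taken by symbol from a total RNA table of 24736 gene symbols, in which all 6 were listed. The samples were hippocampi of male mice aged 4 months, 3 carrying the APPswe and PSEN1dE9 transgenes (APP/PS1, replicates 1, 2 and 3) and 3 WT littermates (replicates 1, 2 and 4), each giving 1 stranded total RNA library. The labels name no promoter for the transgenes, no strain background and no pooling, and the libraries were taken to be separate animals. Levels are CPM, estimated counts per 1000000 of a library's TMM-adjusted total, and were compared only between libraries for the same gene, since CPM is not per transcript length. In bulk tissue, fewer cells of a type and less RNA per cell cannot be told apart.

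The ligands are made as longer precursors that proteases cut into the mature factor. Mature BDNF acts mainly through the receptor tyrosine kinase TrkB (Ntrk2) and mature NT-3 mainly through TrkC (Ntrk3), which recruit adaptors that lead to Ras-MAPK, PI3K-Akt and phospholipase C signalling. The uncut precursors bind p75 (Ngfr), a receptor of the tumour necrosis factor receptor family, together with sortilin (Sort1), a sorting receptor of the Vps10 domain family. In the hippocampus BDNF is known for its part in synaptic plasticity and is induced by neuronal activity.

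Bdnf lies on chromosome 2 (109674700 to 109727043, GRCm38.p6, the build called mm10) and has 7 annotated starts in the RefSeq promoter table. The expression table has 1 row for all of them, so they cannot be separated. In all, 11 start windows of 4 of the genes were matched by symbol (7 for Bdnf, 2 for Ntf3 and 1 each for Ntrk2 and Ngfr). The cAMP response element is the binding motif of CREB, the activity-regulated transcription factor that is known to drive Bdnf. The 250 bases before each start were searched on both strands for the full element TGACGTCA and for the variant TCACGTCA. The full element was in 0 of the 11 windows, and in 1.55% of all 32851 windows of the table. The variant was in 1 of the 11, before the Bdnf start that comes as number 3 in genome order, and in 0.35% of all windows. That window is shown because it is the one that holds the element. It comes from RefSeq (GRCm38.p6, chr2:109692186-109692435, plus strand) and ends at the base before the start, and the capitals mark the element, 38 to 31 bases before the start.
Bdnf, start number 3: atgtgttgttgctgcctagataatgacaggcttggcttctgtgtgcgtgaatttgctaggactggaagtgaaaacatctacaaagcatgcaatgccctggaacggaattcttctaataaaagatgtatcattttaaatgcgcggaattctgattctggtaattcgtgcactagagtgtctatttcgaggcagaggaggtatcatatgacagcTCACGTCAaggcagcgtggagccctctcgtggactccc
The palindromic E-box CACGTG was found in 1 of the 11 windows, before an Ntf3 start, and in 6.02% of all windows. The GC box GGGCGG was in 5 of the 11 windows, of Bdnf, Ntf3 and Ngfr, and in 32.7% of all windows. A match describes the letters and is not a shown binding site.

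The libraries summed to 120958765 to 146904552 estimated counts. App, which the transgene adds to, averaged 3194 ± 260 CPM in APP/PS1, against 1550 ± 29.1 CPM in WT hippocampi (SD over 3 libraries each), with all APP/PS1 libraries above all WT libraries. APP/PS1 replicate 3 stood apart from the other libraries. Cerebellum markers (12 of 12 listed in the table, Itpr1 of which the hippocampus also expresses) summed to 1000.2, 843 and 6336 CPM in APP/PS1 replicates 1, 2 and 3, against 892, 950 and 869 CPM in WT replicates 1, 2 and 4. Cbln3, a gene of cerebellar granule cells, stood at 612 CPM in APP/PS1 replicate 3 and at 0.31 to 0.87 CPM elsewhere. Gabra6, also of granule cells, stood at 283 CPM in that library and at 0.00 to 0.33 CPM elsewhere. Gabra6 and Slc6a5 were at 0 counts in APP/PS1 replicate 2, and Slc6a5 in WT replicates 1 and 4. Dentate granule cell markers summed to 466 CPM in it, against 775 and 803 CPM in the other APP/PS1 libraries and 757 to 782 CPM in WT, and CA1 markers to 542 CPM, against 719 to 770 CPM in the other 5. None of these hippocampal markers was at 0 counts in any library. The fold changes, ratios and list medians below are therefore given with and without APP/PS1 replicate 3, and the part of the cerebellar signal in them was not tested.

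Across the 6 genes no difference between genotypes passed the threshold. With edgeR's quasi-likelihood test and Benjamini-Hochberg adjustment over all 18060 genes tested, 0 of the 6 had an adjusted p under 0.05, beside 0.00554% of all genes, which is 1 gene, Dag1. At an unadjusted p under 0.05 there were 0 of the 6, beside 3.42% of all genes. DESeq2 and limma-voom also called 0 of the 6. The groups overlapped for each of the 6, whereas they did not overlap for 10.4% of all genes tested. Of the 6 log2 fold changes 3 were positive and 3 negative, beside 52.3% positive over all genes. All 6 passed the filter on low counts.

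**Figure D1:**
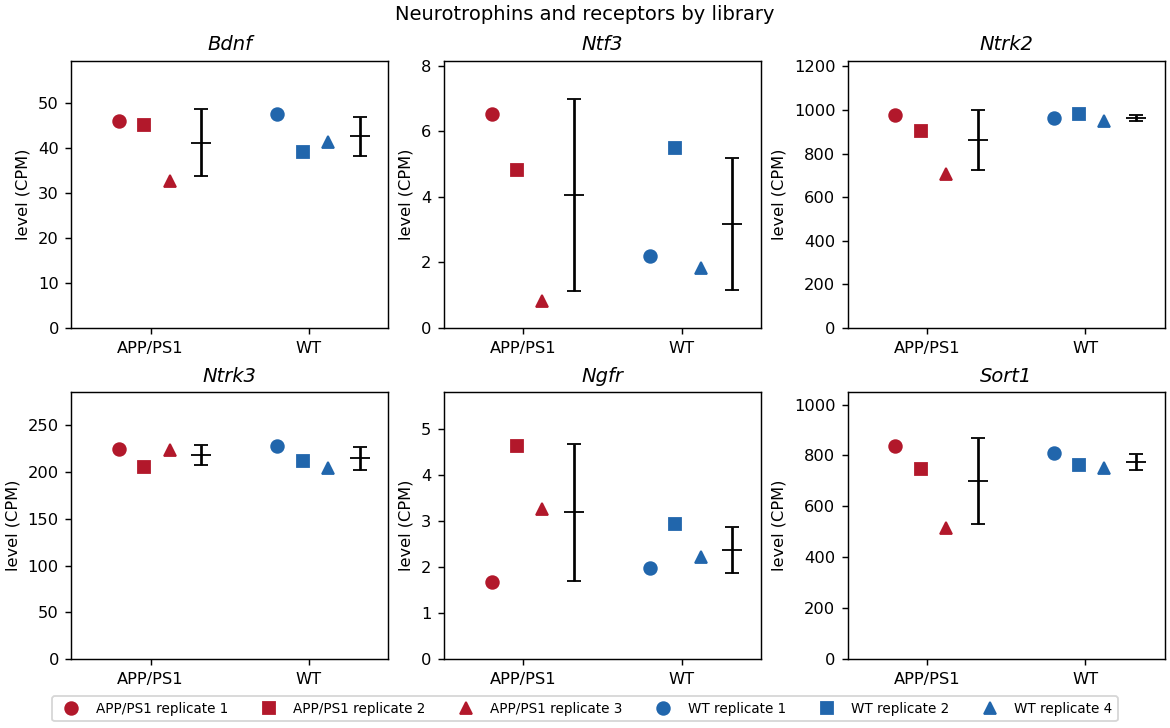
Level of each gene in CPM (vertical axis, starting at 0) in the 3 APP/PS1 libraries (red) and 3 WT libraries (blue), with black bars for the mean ± SD. Bdnf, Ntf3, Ntrk2 and Sort1 are lowest in APP/PS1 replicate 3, and Ntf3 spreads from 0.83 to 6.51 CPM.

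Among the ligands, Bdnf stood at 46.0, 45.1 and 32.6 CPM in APP/PS1 replicates 1, 2 and 3, against 47.5, 39.1 and 41.4 CPM in WT replicates 1, 2 and 4. The APP/PS1 replicate 3 value was the lowest of the 6, and the other APP/PS1 libraries lay within the WT range. The means were 41.2 ± 7.48 CPM in APP/PS1 against 42.7 ± 4.35 CPM in WT (SD over 3 libraries each). The log2 fold change was -0.05 (SE 0.15, 95% interval -0.41 to 0.32), with edgeR's adjusted p = 0.947. Without APP/PS1 replicate 3 the log2 fold change of Bdnf was 0.09 (interval -0.14 to 0.32), the opposite sign, with edgeR's adjusted p = 0.995.

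Ntf3, encoding NT-3 (chromosome 6, 126101412 to 126166772), was the least even of the 6 genes. It stood at 6.51, 4.81 and 0.83 CPM in APP/PS1 replicates 1, 2 and 3, against 2.20, 5.48 and 1.83 CPM in WT replicates 1, 2 and 4. The highest and the lowest library were both APP/PS1 and differed 7.87-fold, a ratio reached or exceeded by 4.73% of all genes tested. The high and low libraries did not follow genotype: APP/PS1 replicates 1 and 2 and WT replicate 2 were high, and the other 3 libraries were low. Within WT alone the SD of log2 CPM was 0.84 for Ntf3, larger than that of 95.4% of genes tested, against a median of 0.12 over all genes. Between genotypes its log2 fold change was 0.35 (SE 0.75, 95% interval -1.43 to 2.14) with edgeR's adjusted p = 0.928, and 0.83 (interval -0.29 to 1.96) with edgeR's adjusted p = 0.995 without APP/PS1 replicate 3. It was -0.17 when APP/PS1 replicate 1 was left out instead. Ntf3 is known as a transcript of dentate granule cells, whose markers summed to 782, 757 and 771 CPM in WT replicates 1, 2 and 4, a far narrower range than that of Ntf3 in the same libraries. In APP/PS1 replicate 3 both Ntf3 and those markers were at their lowest.

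Of the Trk receptors, Ntrk2 (chromosome 13, 58806472 to 59133970) was very even in WT. It stood at 976, 905 and 709 CPM in APP/PS1 replicates 1, 2 and 3, against 963, 980 and 950 CPM in WT replicates 1, 2 and 4. APP/PS1 replicate 3 lay far below the other 5, and APP/PS1 replicate 1 lay inside the WT range. The coefficient of variation was 16.03% in APP/PS1 and 1.56% in WT. Only 3.89% of all genes tested had a smaller SD of log2 CPM within WT, against 51.4% within APP/PS1, so the spread of Ntrk2 in APP/PS1 was that of a typical gene. For Ntrk2 the log2 fold change was -0.16 (SE 0.13, 95% interval -0.46 to 0.14) with edgeR's adjusted p = 0.887, and -0.04 (interval -0.19 to 0.11) without APP/PS1 replicate 3. The full-length kinase and the truncated TrkB made by astrocytes share the symbol and cannot be separated here.

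Ntrk3 (chromosome 7, 78179986 to 78581034) was the most even of the 6 between libraries, with a ratio of 1.12 between its highest and lowest value. It stood at 225, 205 and 224 CPM in APP/PS1 replicates 1, 2 and 3, against 228, 212 and 204 CPM in WT replicates 1, 2 and 4. The genotypes covered nearly the same range, and APP/PS1 replicate 3 did not stand out. The log2 fold change was 0.02 (SE 0.08, 95% interval -0.17 to 0.21) with edgeR's adjusted p = 0.956, and it was -0.002 without APP/PS1 replicate 3. An annotated lncRNA gene overlaps Ntrk2 (Gm53063) and another overlaps Ntrk3 (Gm39038), and whether the counting used strand is not given in the sources used here.

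Ngfr, encoding p75 (chromosome 11, 95568818 to 95587698), was at a low count, 199 to 627 estimated counts per library. It stood at 1.68, 4.64 and 3.26 CPM in APP/PS1 replicates 1, 2 and 3, against 1.99, 2.95 and 2.21 CPM in WT replicates 1, 2 and 4. The APP/PS1 libraries held both the highest and the lowest value. The log2 fold change was 0.42 (SE 0.38, 95% interval -0.48 to 1.32) with edgeR's adjusted p = 0.887, and 0.40 without APP/PS1 replicate 3. It was 0.05 when APP/PS1 replicate 2 was left out and 0.73 when that was replicate 1, so these libraries decided its size, with adjusted p from edgeR of 0.971 and 0.563. p75 is known from basal forebrain cholinergic neurons and from cells of the vessels and meninges. Meningeal fibroblast and mural markers (10 of 10 listed, 0 at 0 counts) summed to 255, 557 and 383 CPM in APP/PS1 replicates 1, 2 and 3, against 295, 420 and 442 CPM in WT replicates 1, 2 and 4. Choroid plexus markers (11 of 11, 0 at 0 counts) summed to 1857, 4134 and 2497 CPM in the APP/PS1 libraries, against 1566, 1864 and 1739 CPM in the WT libraries. Basal forebrain cholinergic markers (8 of 8) summed to 6.86, 11.3 and 18.9 CPM in APP/PS1 replicates 1, 2 and 3, against 7.11, 15.4 and 5.12 CPM in WT replicates 1, 2 and 4. Of these 8, 1 was at 0 counts in APP/PS1 replicate 3, 2 in WT replicate 1 and 1 in WT replicate 4. Chat, the enzyme that makes acetylcholine and the defining member, was at 0.07 to 0.44 CPM in APP/PS1 and 0.12 to 0.84 CPM in WT. Ngfr and the choroid plexus list were highest in APP/PS1 replicate 2, by the sum and by the median over markers. The meningeal list was highest there by the sum only, since its median deviation was -0.88, 0.19 and 0.53 in APP/PS1 replicates 1, 2 and 3, against -0.55, 0.47 and 0.08 in WT replicates 1, 2 and 4 (log2 scale, 0.5 CPM added, relative to the mean of all 6). The part of these cells in the Ngfr value was not tested.

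Sort1, the sortilin gene (chromosome 3, 108283974 to 108361519), followed the pattern of Ntrk2. It stood at 838, 747 and 514 CPM in APP/PS1 replicates 1, 2 and 3, against 809, 761 and 751 CPM in WT replicates 1, 2 and 4. Again APP/PS1 replicate 3 was lowest, and APP/PS1 replicates 1 and 2 lay just above and just below the WT libraries. The log2 fold change was -0.14 (SE 0.18, 95% interval -0.57 to 0.28) with edgeR's adjusted p = 0.889. Without APP/PS1 replicate 3 it was 0.03 (interval -0.15 to 0.21), the opposite sign.

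**Figure D2:**
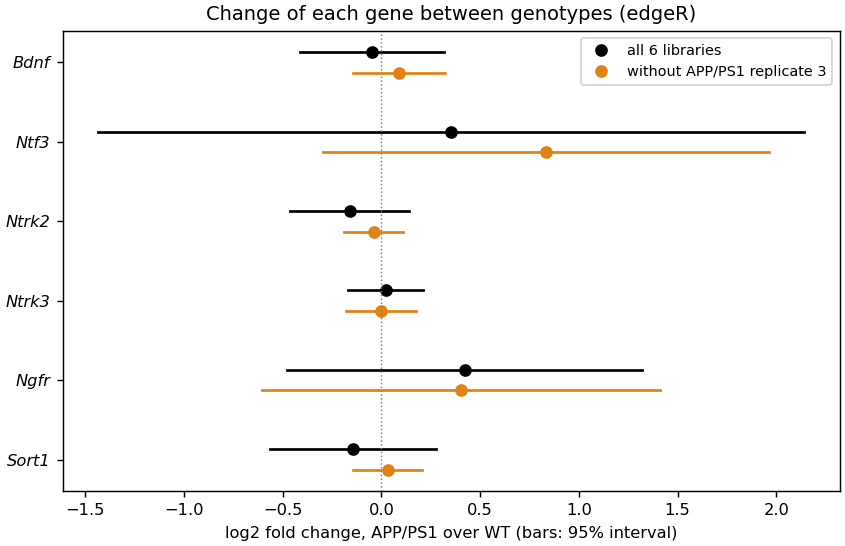
Log2 fold change, APP/PS1 over WT, of each gene with its 95% interval from edgeR, with all 6 libraries (black) and without APP/PS1 replicate 3 (orange). Each interval includes 0, and all are narrower without that library except that of Ngfr, which is wider.

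Set against the mean log2 CPM of the other 5 libraries, APP/PS1 replicate 3 was lower by 0.60 for Sort1, 0.43 for Ntrk2, 0.42 for Bdnf and 2.14 for Ntf3, and it was higher by 0.06 for Ntrk3 and 0.37 for Ngfr. By the same measure 11.9% of all genes tested lay lower than Sort1, 17.7% lower than Ntrk2, 17.9% lower than Bdnf and 0.725% lower than Ntf3. Sorl1, a sortilin-related sorting receptor that binds the amyloid precursor protein, deviated the other way and was higher by 0.46 in that library. The dentate granule, CA1, CA2 and CA3 and neocortex marker lists were each lowest in that library, with medians of -0.69, -0.63, -0.50 and -0.70 relative to the mean of all 6, on a log2 scale with 0.5 CPM added. Lowest there by the same median were also the microglia (-0.55), striatum (-0.46), glial ensheathing (-0.34), basal forebrain cholinergic (-0.30) and oligodendrocyte (-0.24) lists. The astrocyte (0.20), choroid plexus (0.22), meningeal (0.53) and cerebellum (4.08) lists were not. By summed CPM the astrocyte list was lowest there too, at 6567 CPM, against 7462 to 8508 CPM in the other libraries. The striatum and basal forebrain cholinergic lists were instead highest there by the sum, at 188 and 18.9 CPM, so sum and median differ for these lists.

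**Figure D3:**
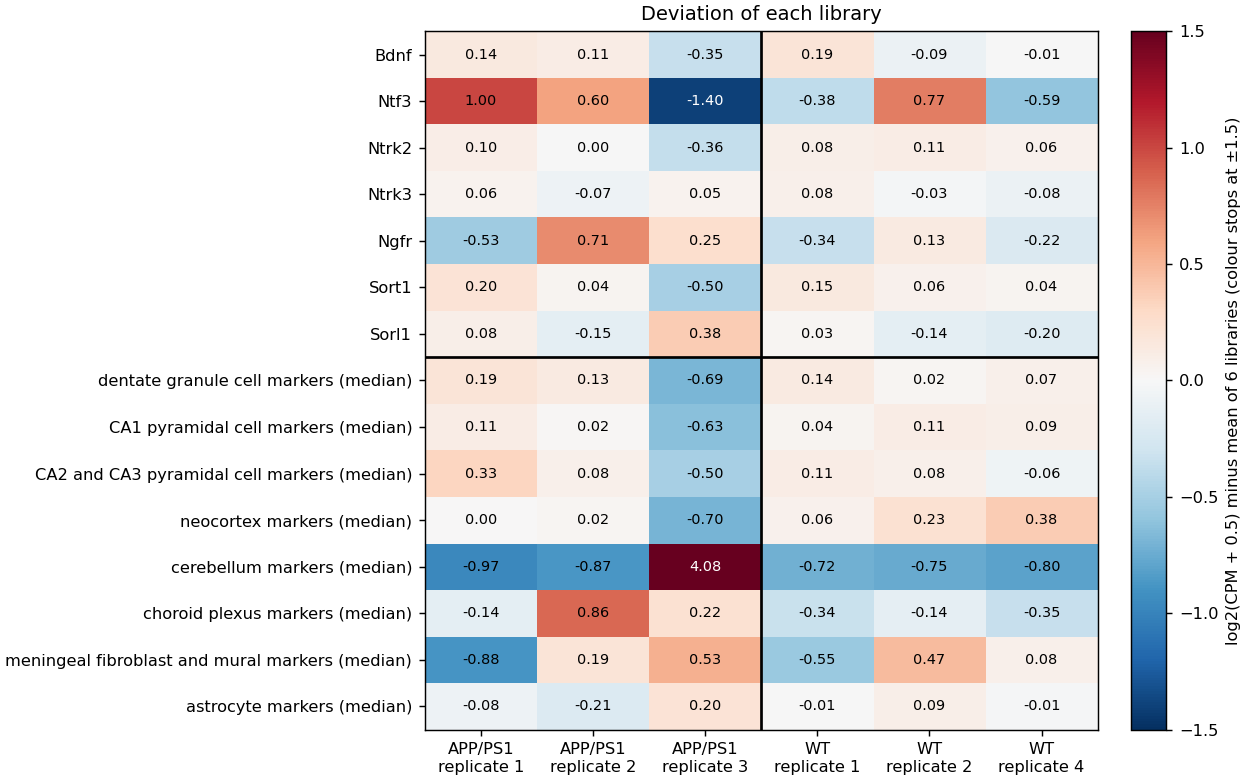
Deviation of each library (columns, APP/PS1 left and WT right) from the mean of the 6 libraries in log2(CPM + 0.5), for the 6 genes and Sorl1 (upper rows) and as the median of marker lists (lower rows). APP/PS1 replicate 3 shows 4.08 for cerebellum markers and -0.36 for Ntrk2, and Ntf3 splits the libraries without regard to genotype.

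The 3 ratios computed within each library, which do not depend on the scaling, were compared by an exact two-sided permutation test of 3 libraries against 3, in which the smallest possible p is 0.1. They are ratios of estimated counts and not of molecules, since the transcripts differ in length. The log2 ratio of Ntrk3 to Ntrk2 averaged -1.97 ± 0.27 in APP/PS1 and -2.17 ± 0.08 in WT (SD over 3 libraries each), a difference of 0.19 with exact permutation p = 0.3, or 0.6 adjusted over the 3 ratios. Without APP/PS1 replicate 3 that difference was 0.04. The log2 ratio of Ngfr to Ntrk2 averaged -8.19 ± 0.87 in APP/PS1 and -8.68 ± 0.28 in WT (SD over 3 libraries each), a difference of 0.49 with exact permutation p = 0.4, or 0.6 adjusted. Leaving out APP/PS1 replicate 3 made that difference 0.28, leaving out replicate 2 made it 0.21 and leaving out replicate 1 made it 0.99. For Ntf3 to Bdnf it averaged -3.78 ± 1.33 in APP/PS1 and -3.92 ± 0.94 in WT (SD over 3 libraries each), a difference of 0.14 with exact permutation p = 0.9, and a difference of 0.90 once APP/PS1 replicate 3 was left out. Each difference was smaller than the SD within APP/PS1, while those of Ntrk3 to Ntrk2 and Ngfr to Ntrk2 were larger than the SD within WT, and the groups overlapped for all 3.

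For each gene other than Ngfr the pair of genes with the highest Pearson correlation of log2 CPM over the 6 libraries was found among 11773 genes with a mean of at least 5 CPM, as a description over 6 points that share APP/PS1 replicate 3. The profile of Ntf3 was most like that of Cmip (r = 0.992) and Mrps33 (r = 0.991), with r = 0.984 for each without APP/PS1 replicate 3. Cmip stood at 396, 389 and 131 CPM in APP/PS1 replicates 1, 2 and 3, against 237, 396 and 225 CPM in WT replicates 1, 2 and 4, so it was high and low in the same libraries as Ntf3. Ntrk3 was most like Pip5k1b (r = 0.995) and Akr1e1 (r = 0.988). For Bdnf the closest were Pls3 and Uhmk1 (r = 0.995 for each), for Ntrk2 Pdyn (r = 0.998), the prodynorphin gene, and Arhgap33 (r = 0.997), and for Sort1 Epha4 and Raver2 (r = 0.999 for each). Among the 6 genes themselves Ntrk2 and Sort1 had r = 0.975 over the 6 libraries and 0.577 without APP/PS1 replicate 3. Bdnf and Ntrk2, ligand and receptor, had r = 0.807 over the 6 and -0.23 without that library.

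**Figure D4:**
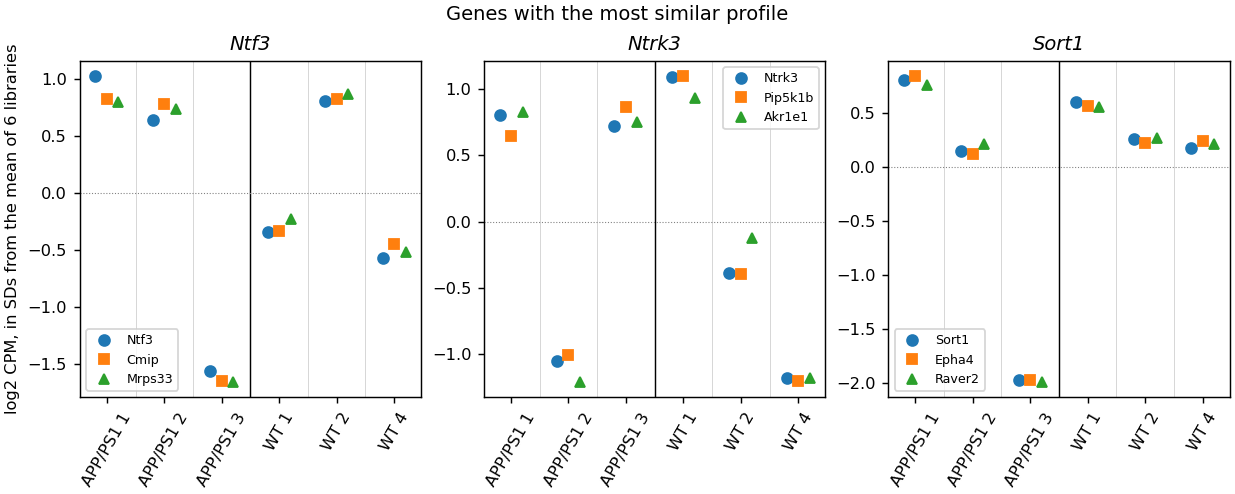
Log2 CPM of Ntf3, Ntrk3 and Sort1 and of the pair of genes most like each, in SDs from the mean of the 6 libraries (vertical axis), for the APP/PS1 libraries left of the line and the WT libraries right of it. The symbols of each trio lie close together in most libraries, and no trio separates the genotypes.

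The other neurotrophins and receptors were all measured (8 of 8 tested). Of these, 2 had log2 fold changes above 0 and 6 below 0, with a median of -0.14, beside 0.01 over all genes tested. Without APP/PS1 replicate 3 there were 4 above and 4 below 0, with a median of -0.03. In the fit of all libraries 0 passed edgeR's test or DESeq2, with 0 at an unadjusted p under 0.05. Ntf5, encoding NT-4, the second ligand of TrkB, averaged 0.33 ± 0.07 CPM in APP/PS1, against 0.35 ± 0.04 CPM in WT (SD over 3 libraries each), and its log2 fold change was -0.05, or 0.01 without APP/PS1 replicate 3. Nradd, a relative of p75, averaged 0.64 ± 0.01 CPM in APP/PS1, against 0.47 ± 0.17 CPM in WT, with all APP/PS1 libraries above all WT libraries, beside 5.63% of all genes. At 35 to 92 estimated counts per library, its lowest APP/PS1 value was 0.637 CPM and its highest WT value 0.625 CPM. The Nradd log2 fold change was 0.45 (SE 0.34) with edgeR's adjusted p = 0.887, and 0.45 without APP/PS1 replicate 3.

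Among the Vps10 relatives of sortilin, Sorcs1 and Sorcs2 had all APP/PS1 libraries below all WT libraries, beside 4.76% of all genes tested. Sorcs2, which can act as a p75 co-receptor for proneurotrophins, stood at 61.0, 68.7 and 40.2 CPM in APP/PS1 replicates 1, 2 and 3, against 71.7, 70.4 and 69.0 CPM in WT replicates 1, 2 and 4, with a log2 fold change of -0.31 (SE 0.19) and edgeR's adjusted p = 0.887. APP/PS1 replicate 3 again lay far below the rest, and without it the log2 fold change was -0.12. Sorcs1 stood at 21.7, 28.2 and 28.3 CPM in APP/PS1 replicates 1, 2 and 3, against 29.5, 33.3 and 28.5 CPM in WT replicates 1, 2 and 4. The lowest WT library lay only just above the highest APP/PS1 library, and the log2 fold change was -0.22, or -0.29 without APP/PS1 replicate 3. Sorcs3 had -0.05 (SE 0.13) as its log2 fold change, and 0.07 without APP/PS1 replicate 3. Sorl1 averaged 1015 ± 188 CPM in APP/PS1, against 871 ± 72.1 CPM in WT, and its log2 fold change was 0.22 (SE 0.15), or 0.07 without APP/PS1 replicate 3.

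The enzymes and inhibitors of precursor cleavage gave 13 tested genes of 16 listed, 7 with log2 fold changes above 0 and 6 below 0 and a median of 0.12, or 0.03 without APP/PS1 replicate 3. Of these 0 passed edgeR's test or DESeq2, and in edgeR's test 0 had an unadjusted p under 0.05, beside 3.42% of all genes. DESeq2 tested 15 of the 16 and had 1 at an unadjusted p under 0.05, beside 923 of all 21128 genes. Pcsk1, a convertase of dense-core vesicles, averaged 22.5 ± 4.06 CPM in APP/PS1, against 28.8 ± 3.31 CPM in WT (SD over 3 libraries each), with a log2 fold change of -0.36, or -0.23 without APP/PS1 replicate 3. Furin, the convertase of the trans-Golgi network, averaged 52.1 ± 3.32 CPM in APP/PS1, against 45.4 ± 3.44 CPM in WT, and its log2 fold change was 0.20 (SE 0.09) with edgeR's adjusted p = 0.887, or 0.15 without APP/PS1 replicate 3. Timp1, an inhibitor of the matrix metalloproteinases that can cut precursors outside the cell, stood at 2.27, 2.25 and 4.16 CPM in APP/PS1 replicates 1, 2 and 3, against 2.01 to 2.12 CPM in WT. Its groups did not overlap, beside 5.63% of all genes tested in that direction. Only APP/PS1 replicate 3 lay clearly above WT. The Timp1 log2 fold change was 0.49, or 0.13 without that library. Plg, Mmp3 and Mmp7 did not pass the filter on low counts.

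Of 19 genes for sorting and transport of neurotrophins and their receptors, all tested, 5 had log2 fold changes above 0 and 14 below 0, with a median of -0.06, or 9 positive and 10 negative with a median of -0.0003 without APP/PS1 replicate 3. Kif5a, a kinesin motor of neurons, averaged 2254 ± 294 CPM in APP/PS1, against 2675 ± 282 CPM in WT. The groups did not overlap, beside 4.76% of all genes tested in that direction. The Kif5a log2 fold change was -0.25, or -0.15 without APP/PS1 replicate 3. Cadps2, which promotes BDNF secretion and is known from cerebellar granule cells, stood at 127, 111 and 305 CPM in APP/PS1 replicates 1, 2 and 3, against 113 to 122 CPM in WT. Its log2 fold change was 0.63 with all libraries, against 0.02 without APP/PS1 replicate 3. Rab3a, a vesicle GTPase, had -0.10 (SE 0.08) as its log2 fold change, and -0.05 without that library.

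Of 46 genes for Trk adaptors and downstream kinases, all tested, 23 had log2 fold changes above 0 and 23 below 0, with a median of 0.0004, or 24 and 22 with a median of 0.007 without APP/PS1 replicate 3. Rps6ka1, a ribosomal S6 kinase downstream of MAPK, stood at 12.8, 11.1 and 80.7 CPM in APP/PS1 replicates 1, 2 and 3, against 10.4 to 14.0 CPM in WT. Its log2 fold change was 1.58 with all libraries and 0.03 without APP/PS1 replicate 3. Shc3, a neuronal Shc adaptor of Trk receptors, stood at 66.2, 61.3 and 36.2 CPM in APP/PS1 replicates 1, 2 and 3, against 70.8, 74.4 and 70.5 CPM in WT replicates 1, 2 and 4. All APP/PS1 libraries lay below all WT libraries, beside 4.76% of all genes tested. The Shc3 log2 fold change was -0.40 (SE 0.22), or -0.18 without APP/PS1 replicate 3, and edgeR's adjusted p was 0.887 and 0.995. Rap1a, a small GTPase of sustained Trk signalling, had 0.16 (SE 0.08) as its log2 fold change, or 0.15 without APP/PS1 replicate 3. For it all APP/PS1 libraries lay above all WT libraries, beside 5.63% of all genes tested.

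Of 23 tested partners and adaptors of p75, 10 had log2 fold changes above 0 and 13 below 0, with a median of -0.04, or 11 and 12 with a median of -0.002 without APP/PS1 replicate 3. Adam17, a sheddase that cuts p75, stood at 22.7, 23.1 and 26.6 CPM in APP/PS1 replicates 1, 2 and 3, against 21.2, 19.6 and 19.1 CPM in WT replicates 1, 2 and 4. Its groups did not overlap, beside 5.63% of all genes tested in that direction. Its log2 fold change was 0.27 (SE 0.10), with edgeR's adjusted p = 0.887, or 0.19 without APP/PS1 replicate 3. Prdm4, a zinc finger protein that binds p75, stood at 28.6, 24.9 and 37.0 CPM in APP/PS1 replicates 1, 2 and 3, against 40.0, 37.0 and 39.0 CPM in WT replicates 1, 2 and 4. Its log2 fold change was -0.36 with all libraries and -0.53 without APP/PS1 replicate 3, with adjusted p from edgeR of 0.887 and 0.839. Mapk8, encoding the kinase JNK1 of the p75 death pathway, stood at 59.8, 118 and 103 CPM in APP/PS1 replicates 1, 2 and 3, against 133, 118 and 128 CPM in WT replicates 1, 2 and 4. Only APP/PS1 replicate 1 lay far below WT for Mapk8, whose log2 fold change was -0.44, or -0.51 with APP/PS1 replicate 3 left out. A list of 19 genes, most of which restrain Trk signalling, had 9 log2 fold changes above 0 and 10 below 0 and a median of -0.01, both as in the fit without APP/PS1 replicate 3. Islr2 encodes a membrane protein that binds Trk receptors and is not known to restrain them. It stood at 124, 40.5 and 60.3 CPM in APP/PS1 replicates 1, 2 and 3, against 101 to 117 CPM in WT. The Islr2 log2 fold change was -0.57, or -0.44 without APP/PS1 replicate 3. Dusp4, a MAPK phosphatase, had -0.28 (SE 0.14) as its log2 fold change, and -0.17 without that library. For Ptprf, a receptor tyrosine phosphatase, it was -0.31 (SE 0.19), and -0.15 without that library. With all libraries, in the sorting, Trk, p75 and restraint lists 0 genes passed edgeR's test or DESeq2. In edgeR's test Adam17 was the 1 gene of these lists with an unadjusted p under 0.05, beside 3.42% of all genes.

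**Figure D5:**
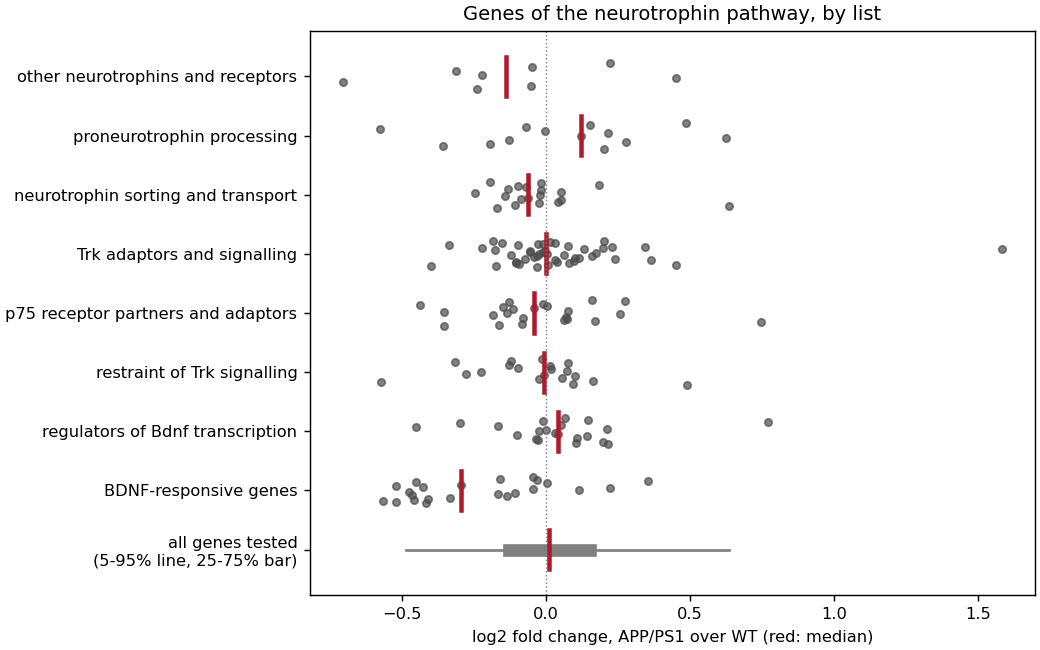
Log2 fold change, APP/PS1 over WT, of each tested gene (points) and the median (red) of 8 lists of the neurotrophin pathway, with all 18060 genes tested at the bottom (grey line from the 5th to the 95th percentile, bar from the 25th to the 75th). Medians lie between -0.29 for BDNF-responsive genes and 0.12 for precursor processing, beside 0.01 for all genes.

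Upstream of Bdnf, 21 regulators of its transcription were all tested, with 13 log2 fold changes above 0 and 8 below 0 and a median of 0.04, or 9 positive and 12 negative with a median of -0.02 without APP/PS1 replicate 3. Creb1, encoding CREB, averaged 94.3 ± 12.3 CPM in APP/PS1, against 81.3 ± 5.10 CPM in WT (SD over 3 libraries each), and its log2 fold change was 0.21 (SE 0.11), or 0.10 without APP/PS1 replicate 3. Hdac2, a histone deacetylase, averaged 61.0 ± 1.71 CPM in APP/PS1, against 55.1 ± 2.32 CPM in WT. Its groups did not overlap, beside 5.63% of all genes tested in that direction. The Hdac2 log2 fold change was 0.15, or 0.16 without APP/PS1 replicate 3. Bhlhe40, a repressor of the bHLH family, had -0.17 (SE 0.09) as its log2 fold change, and -0.11 without that library. Of this list 0 genes passed edgeR's test or DESeq2, and 0 had an unadjusted p under 0.05.

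Downstream, 23 tested genes known to respond to BDNF or to neuronal activity had 19 negative and 4 positive log2 fold changes and a median of -0.29, while Bdnf itself was at -0.05. The list overlaps the immediate early genes, whose lower values in these libraries were known when it was drawn up, so its direction is no independent evidence. Of these 23, 0 were called by edgeR over all genes or by DESeq2, and 3 had an unadjusted p under 0.05, all lower, beside 1.52% of all genes lower at that level. For 9 of the 23 all APP/PS1 libraries lay below all WT libraries, beside 4.76% of all genes tested. Egr1, an activity-induced zinc finger factor, stood at 184, 195 and 114 CPM in APP/PS1 replicates 1, 2 and 3, against 220, 259 and 252 CPM in WT replicates 1, 2 and 4. Its log2 fold change was -0.57 (SE 0.20) with edgeR's adjusted p = 0.887. Fos stood at 21.4, 20.8 and 22.7 CPM in APP/PS1 replicates 1, 2 and 3, against 24.5, 32.3 and 24.96 CPM in WT replicates 1, 2 and 4, and here APP/PS1 replicate 3 was not the lowest. Nr4a1, a nuclear receptor induced by activity, had -0.48 (SE 0.19) as its log2 fold change.

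Without APP/PS1 replicate 3 the same list of BDNF-responsive genes again had 19 negative and 4 positive values, with a median of -0.17. In that fit 6 had an unadjusted p under 0.05, all lower, beside 2.15% of all genes, and 0 had an adjusted p under 0.05, beside 0.0273%. The count at an unadjusted p under 0.05 in edgeR's test changed with the library left out, as did that over all genes (here in either direction). Leaving out APP/PS1 replicate 1 gave 4 such genes, beside 1501 of all 18375 genes tested. Leaving out APP/PS1 replicate 2 gave 2, beside 973 of 18333. Leaving out WT replicate 1 gave 2, beside 371 of 18381. Leaving out WT replicate 4 gave 1, beside 360 of 18334, and leaving out WT replicate 2 gave 0, beside 345 of 18354. In these fits 16 to 19 of the 23 values were negative. For 11 of the 23 both remaining APP/PS1 libraries lay below all WT libraries, beside 9.73% of all genes. The log2 fold change in these 5 libraries was -0.36 for Egr1, -0.37 for Fos and -0.30 for Nr4a1, with edgeR's adjusted p = 0.995 for each. Markers of the neocortex, which also expresses activity-induced genes, summed to 645, 589 and 396 CPM in APP/PS1 replicates 1, 2 and 3 (11 of 12 listed names in the table, 0 at 0 counts), against 657, 733 and 907 CPM in WT replicates 1, 2 and 4. All APP/PS1 libraries thus lay below all WT libraries for the sum of those markers too. Without APP/PS1 replicate 3, Mef2c alone averaged 111 CPM in APP/PS1, against 222 CPM in WT (log2 fold change -1.01), so the sum leaned on that gene. In that fit 10 of the 11 markers were lower, with a median of -0.24, and Bcl11b was at 0.04. Bcl11b, with a WT mean of 229 CPM, and Mef2c had the highest WT means of the list. How much of either transcript came from neocortex was not tested, so the sum cannot be read as neocortex tissue alone. The part of these markers in the lower values of the BDNF-responsive genes was not tested.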

How the data were processed

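Total RNA of 6 hippocampi was analysed, and the small RNA table was not used here. The table, as deposited, gives estimated counts as whole numbers for each gene symbol, with HISAT2, StringTie and DESeq and build mm10 named without roles in the submitters' processing notes. For the counter, annotation and strand setting: not given in the sources used here. The values 4 and 8 occurred 1817 and 1201 times in the table, against 897 and 588 for 3 and 7, so 1 fragment may stand for about 4 estimated counts and the depth in fragments is uncertain.

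Estimated counts were used as deposited in edgeR 4.0.16 (R 4.3.3): TMM, default count filter, quasi-likelihood test without covariates, adjustment over all 18060 genes, threshold 0.05. SEs come from the fold change and the F statistic. Log2 CPM for correlations had a prior count of 2. Other settings used DESeq2 1.42.0 and limma 3.58.1. The edgeR steps were tested on simulated data. Named genes were all 6 genes, all of the other neurotrophins and receptors, and for each list the 3 with the smallest unadjusted p; some are not reported here. The genes and lists were chosen with earlier results of these data known. Ngfrap1 and Ccn1, other names of Bex3 and Cyr61, were not in the table.

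No label states that equal replicate numbers pair the libraries. P-values weigh a difference between genotypes against the spread between these libraries, which edgeR estimates with information shared over genes.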

Additional observations from a re-analysis of the deposited data

How the results depend on the processing

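No setting brought any of the 6 genes past the threshold, and adjusted p was at least 0.563. The count of genes past the threshold over all genes was 1, as it was with both other size factors, both other filters, limma-voom and the counts divided by 4. It was 24 with DESeq2, 5 with limma-voom quality weights, 2 with the replicate block (numbers 1 and 2 occur in both genotypes) and 0 to 6 with 1 library left out. The block fit compares genotypes only within numbers 1 and 2. APP/PS1 replicate 3 and WT replicate 4 thus add nothing to its fold changes, so it also sets aside the library that stood apart. Deviations from the genotype mean correlated at 0.09 between the libraries of number 1 and at -0.04 between those of number 2. Between libraries of unlike number and genotype they correlated at -0.08 to 0.07. With 3 libraries per genotype these values cannot show or exclude a pairing by number. Small fold changes turned sign. Bdnf was 0.073 with quality weights and 0.079 with the replicate block, Ntrk3 was -0.011 with upper-quartile factors, -0.0012 with quality weights and -0.033 with the replicate block, and Sort1 was 0.012 with the replicate block. With 1 library left out Bdnf ran from -0.13 to 0.090, Ntf3 from -0.17 to 1.01, Ntrk2 from -0.25 to -0.04, Ntrk3 from -0.013 to 0.072, Ngfr from 0.05 to 0.73 and Sort1 from -0.29 to 0.031. The difference in the Ntf3 to Bdnf ratio ran from -0.34 to 0.90, that in Ngfr to Ntrk2 from 0.21 to 0.99 and that in Ntrk3 to Ntrk2 from 0.04 to 0.28. The cause was not tested. Of 120 list medians under the other settings, 107 moved by less than the SD between libraries of that list's own median level, pooled within genotypes. Ngfr, Ntf3, Ntf5 and Nradd had few counts, and their intervals are wide.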
